A study of Mus musculus with 3 samples.

Results

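The genes described here are 3 families of membrane transporters and related ATPases: the Slco genes, which encode organic anion transporting polypeptides, the Slc22 genes, which encode organic cation, anion and carnitine carriers, and the ABC genes of subfamilies Abca to Abcg. They were chosen by gene symbol, with earlier results of these data known, from the deposited table of 34617 gene rows. 89 rows matched: 15 Slco genes, 24 Slc22 genes and 50 ABC genes. 1 Slc22 gene was left out by the choice of members, and Tap1, Tap2 and Cftr, which are ABC proteins by structure, are described as related genes because their symbols do not match.

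Both RNA libraries came from sorted cells of the main olfactory epithelium of mice aged 4 weeks. The O/Tet3 library was made from FVB mice carrying OMP-tTA, a transactivator expressed with the olfactory marker protein gene, and a tetO-Tet3-GFP transgene that it switches on. The mOSN library was made from EGFP-positive cells of C57BL/6J mice carrying OMP-ires-EGFP, a reporter in the same gene, and is the sample of mature olfactory sensory neurons. Omp is on in mature neurons, so transgene and reporter both mark that stage. Each group has 1 library, so the differences below have no test or replicate check, and genotype, transgene, reporter, strain and library cannot be told apart. In bulk RNA, fewer cells of a type and less RNA per cell cannot be told apart either.

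Slco and Slc22 proteins carry bile acids, hormones, drugs, carnitine and other organic ions across cell membranes, and many are known from liver and kidney. Most ABC proteins use ATP to move lipids, drug conjugates, peptides or metals out of the cytosol or across the membranes of organelles, while the Abce and Abcf proteins have no membrane domain and act on ribosomes. In the olfactory epithelium, odorants and other foreign compounds are met by detoxifying enzymes, and efflux pumps carry their conjugates away.

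Values are given as deposited after undoing the log2(value + 1) scale. The file does not name the linear unit, so levels of different genes are not ranked, and sums over marker genes are compared between the libraries only. Log2 ratios are O/Tet3 over mOSN of value + 1, and a fold divides the O/Tet3 value by the mOSN value, or the reverse where lower is stated. A gene was compared when its value reached 1 in either library, and was called higher or lower at a log2 ratio of at least 1 in size. The total depth is unknown. Among 1943 low rows the commonest log2 ratio was 0.91, held by 82 of them. If those rows have 1 read in each library, a single read adds 1.88 times as much to a value in O/Tet3 as in mOSN. A low value in O/Tet3 would then rest on fewer reads, but the number of reads behind these rows is not known. Tet3, the transgene, was at 145 in O/Tet3 and 3.72 in mOSN, and Omp was at 139 in O/Tet3 and 298 in mOSN. The 8 mature neuron markers were all called lower, with a summed value of 398 in O/Tet3 and 1555 in mOSN, which stands beside every lower transporter below and whose part in them was not tested.

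Most of these transporters were low in both libraries, and those that could be compared were lower more often than higher in O/Tet3. Of the 89 genes, 28 were compared, 31.5%, against 37.4% of all rows. 3 were higher, Slco1a6, Abca1 and Abcf3, and 6 were lower, Abcc1, Abca2, Abca3, Abcd2, Abca5 and Slco3a1. The 3 higher genes are 10.7% of the compared members, where 16.5% of all 12943 compared rows were higher. The 6 lower genes are 21.4%, where 12.0% of all compared rows were lower. The median log2 ratio was −0.35 over the 28 members and 0.21 over all compared rows. When ratios were centred on the median of the 9934 rows reaching 1 in both libraries, 0.21, the members' calls stayed at 3 higher and 6 lower, while 11.3% of all rows were then higher and 15.1% lower. No compared member was listed at 0 in a library, so none of these calls comes from a 0. Of the 28, 20 reached 1 in both libraries, as did 9934 of all 12943 compared rows. For a gene that reached 1 in 1 library only, the floor itself sets the direction. Among the called members these are Abca1, Abca2 and Slco3a1, and the same limit holds in the related and marker lists. The called genes nearest to the limit were Slco3a1 at −1.17 and Abca5 at −1.19, and the nearest genes not called were Abce1 at 0.85 and Slc22a15 at −0.78.

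**Figure D1:**
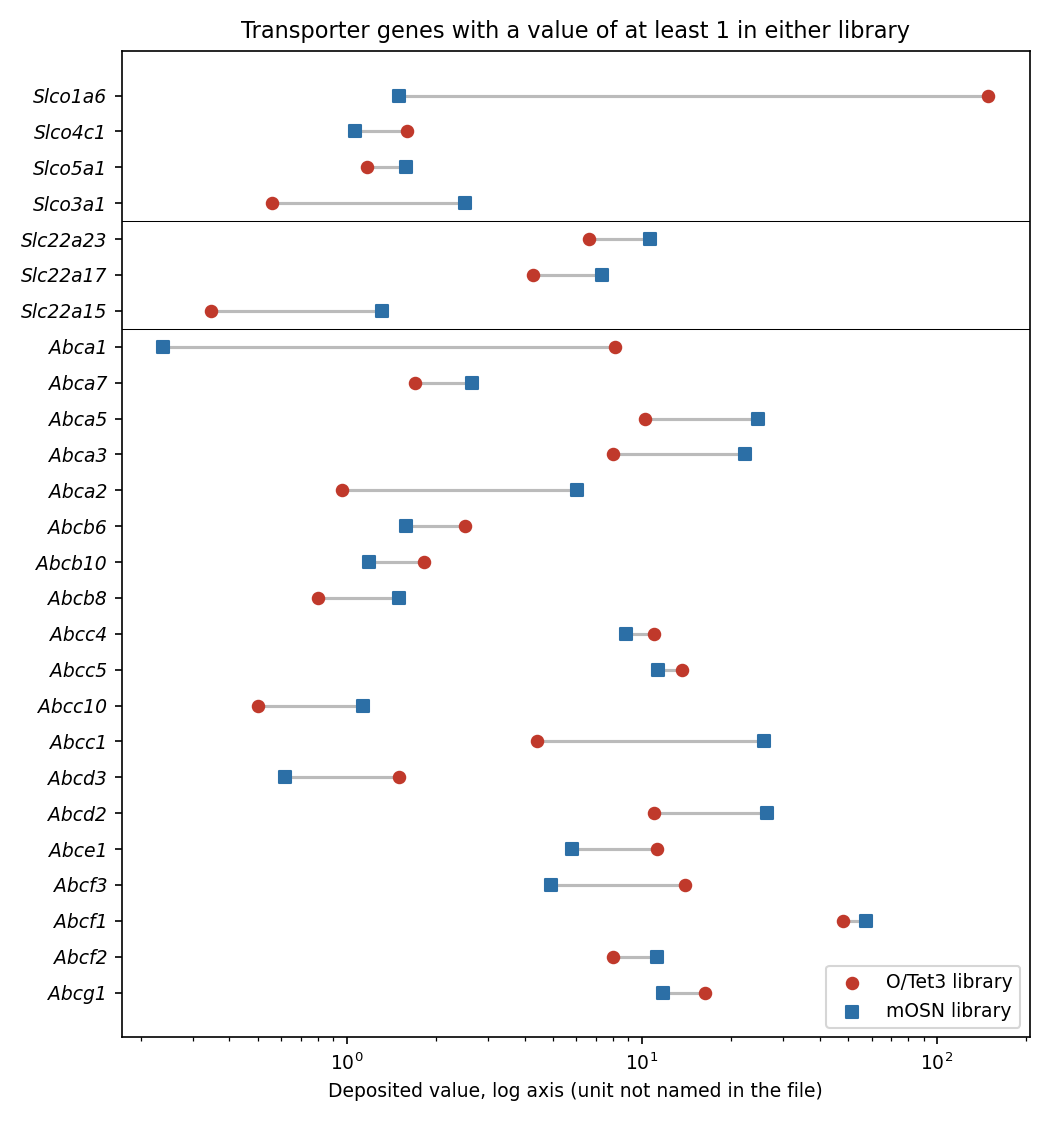
Deposited values (log axis, unit not named in the file) of 26 of the 28 transporter genes that reached 1 in the O/Tet3 or the mOSN library. Red circles are the O/Tet3 library and blue squares the mOSN library, joined by a grey line for each gene, with families separated by horizontal lines. Slco1a6 and Abca1 have the widest gaps with O/Tet3 on the right, and Abcc1 and Abca2 the widest with O/Tet3 on the left.

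**Figure D2:**
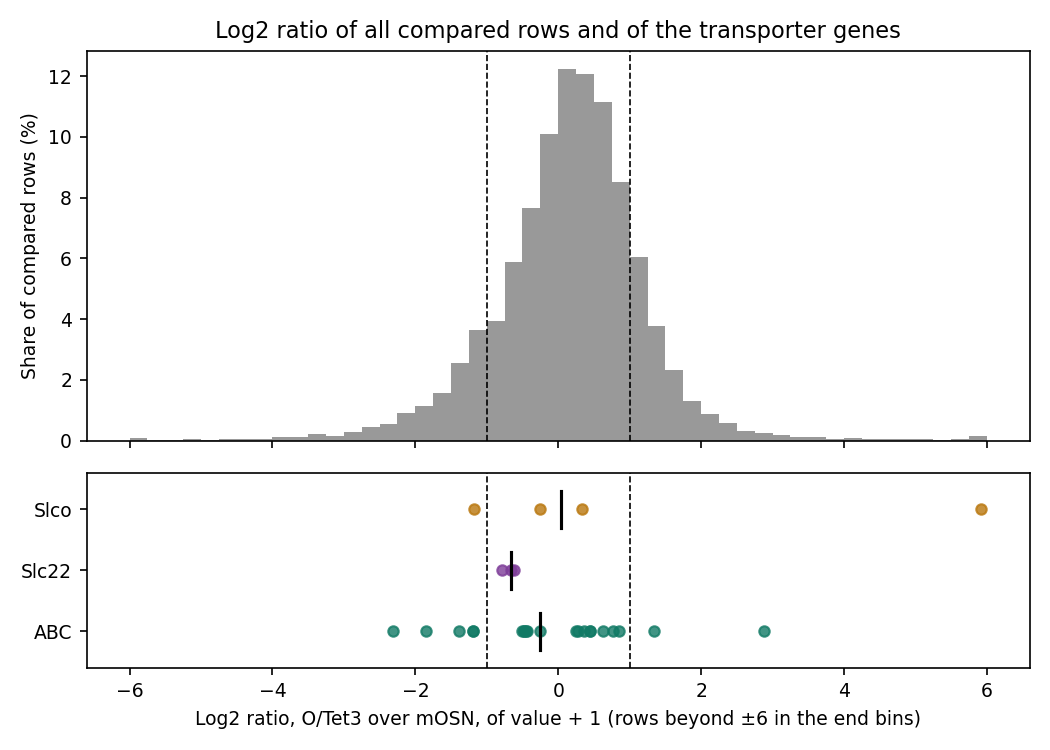
Log2 ratios, O/Tet3 over mOSN, of value + 1. The upper panel gives the share of all 12943 compared rows in each bin, and the lower panel each compared transporter gene, with a black bar at the family median and dashed lines at the limits for a call. The 3 Slc22 points lie between −0.78 and −0.62, while the ABC points run from −2.31 to 2.88.

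Among the Slco genes, 1 had a log2 ratio far from the others. Slco1a6, a member of the Oatp1a subfamily of organic anion carriers, was at 149 in O/Tet3 and 1.50 in mOSN, 99.8-fold higher (log2 ratio 5.91). This was the 18th highest log2 ratio of the 12943 compared rows. The other members of its subfamily were at or near 0 in both libraries. Slco1a5 was listed at 0 in O/Tet3 and at 0.0137 in mOSN. Slco1a1 was listed at 0 in O/Tet3 and at 0.0167 in mOSN, and Slco1a4 was listed at 0 in O/Tet3 and at 0.00610 in mOSN. These genes lie in a row on chromosome 6 in RefSeq. The coding genes next to Slco1a6 are Gm6614, listed at 0 in both libraries, and Slco1a5. The pseudogene Gm18159, which overlaps Slco1a6, was also listed at 0 in both. Paralogs of this subfamily share sequence, and the sources used here do not state how reads that match several of them were assigned. A fold of this size from 1 library is to be read with caution, and whether the reads behind it come from Slco1a6 transcripts was not tested.

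The annotated start of Slco1a6 is poor in CG, the dinucleotide at which cytosine is methylated and oxidised, and is shown beside that of its neighbour Slco1a5. The windows are RefSeq's on GRCm38.p6, run from 250 bases before to 50 after the start, and are read on the minus strand. The Slco1a6 window, chr6:142186100-142186399, holds 1 CG, and the window of Slco1a5 with more CG, chr6:142322932-142323231, holds 3. Each CG is in capitals.
Slco1a6: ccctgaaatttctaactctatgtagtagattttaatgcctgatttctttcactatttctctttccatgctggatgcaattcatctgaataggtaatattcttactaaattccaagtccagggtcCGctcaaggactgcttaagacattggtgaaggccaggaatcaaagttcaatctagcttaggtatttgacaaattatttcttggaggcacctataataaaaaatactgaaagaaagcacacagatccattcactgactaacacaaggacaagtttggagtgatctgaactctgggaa
Slco1a5: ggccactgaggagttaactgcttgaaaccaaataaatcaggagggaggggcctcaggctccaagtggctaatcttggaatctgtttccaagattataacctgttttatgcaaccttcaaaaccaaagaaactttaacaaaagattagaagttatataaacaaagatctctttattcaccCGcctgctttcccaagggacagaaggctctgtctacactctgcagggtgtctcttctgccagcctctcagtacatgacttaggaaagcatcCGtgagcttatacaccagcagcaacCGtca
Over all 32851 RefSeq windows of this length the median was 7 CG, with quartiles of 3 and 20, so both lie at or below the lower quartile. The Slco1a6 window contains neither GGGCGG nor TATAAA, searched on both strands, which 35.7% and 13.6% of all windows hold. A match or its absence describes these letters only, and the deposited values came from build mm9.

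The other compared Slco genes were low. Slco3a1, a carrier of prostaglandins and thyroid hormone, was at 0.559 in O/Tet3 and 2.52 in mOSN, 4.51-fold lower (log2 ratio −1.17). Slco4c1, known as a kidney carrier of thyroid hormone and cardiac glycosides, was at 1.60 in O/Tet3 and 1.07 in mOSN, within the limits for a call. Slco5a1, whose substrates are poorly known, was at 1.17 in O/Tet3 and 1.59 in mOSN. The family median over these 4 genes, 0.04, has no clear sign, since it was −0.17 after centring and −0.01 with no floor. The 11 Slco genes under the floor reached at most 0.746, the value in mOSN of Slco6c1, a gene known from testis, which was at 0.448 in O/Tet3. Slco2a1, the prostaglandin transporter, was at 0.0855 in O/Tet3 and listed at 0 in mOSN. Slco1c1, a thyroxine carrier of brain vessels, was at 0.0164 in O/Tet3 and listed at 0 in mOSN.

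**Figure D3:**
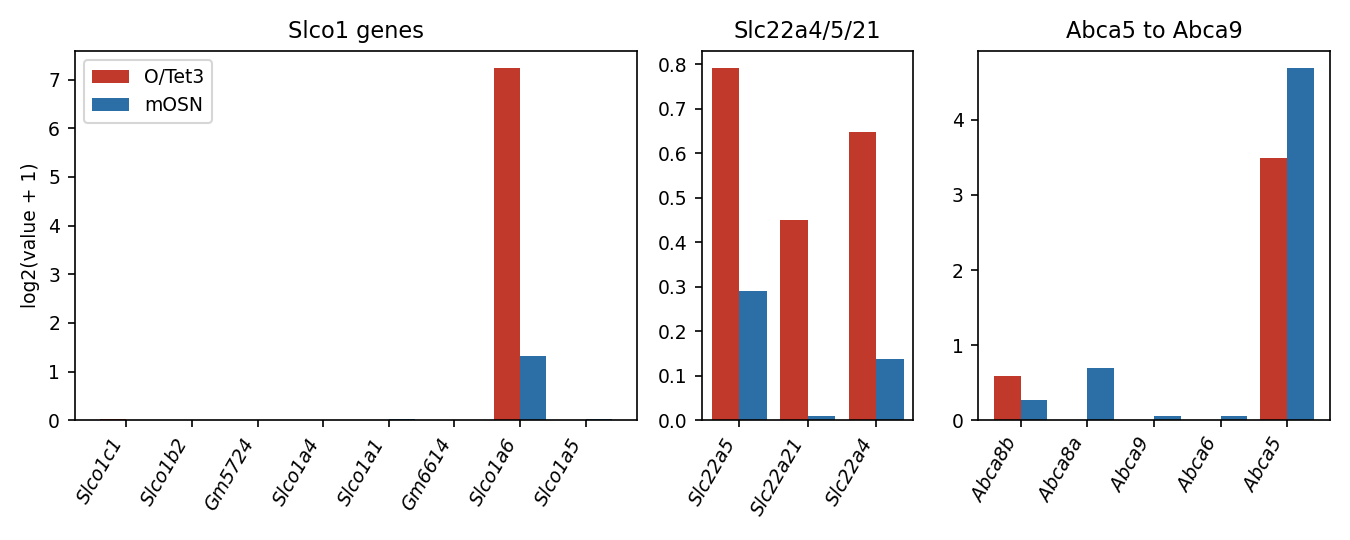
Values on the log2(value + 1) scale for 3 runs of neighbouring transporter genes, in RefSeq order from left to right, with the O/Tet3 library in red left of the mOSN library in blue. The vertical axes differ between panels. Slco1a6 stands alone among the Slco1 genes, Slc22a5, Slc22a21 and Slc22a4 are each higher in O/Tet3 at values under 1, and Abca5 is lower in O/Tet3.

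The 3 compared Slc22 genes were all lower in value in O/Tet3, and none reached the limit for a call. Slc22a23, a carrier without a known substrate, was at 6.59 in O/Tet3 and 10.7 in mOSN (log2 ratio −0.62). Slc22a17, a receptor for the iron-binding protein lipocalin 2, was at 4.28 in O/Tet3 and 7.34 in mOSN (log2 ratio −0.66). Slc22a15 was at 0.347 in O/Tet3 and 1.32 in mOSN (log2 ratio −0.78), and as it reached the floor in mOSN only, its direction was set by the floor. Their median of −0.66 describes these 3 genes only. Over the 12 Slc22 genes above 0 in either library it was 0.19.

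Slc22a5, Slc22a4 and Slc22a21, carriers of carnitine and related compounds under the floor, each had the larger value in O/Tet3. Of the 21 Slc22 genes under the floor, 7 were larger in O/Tet3, 2 were larger in mOSN and 12 were listed at 0 in both. Slc22a5, the main carnitine transporter of the cell membrane, was at 0.731 in O/Tet3 and 0.223 in mOSN. Slc22a4, which carries ergothioneine, was at 0.567 in O/Tet3 and 0.0998 in mOSN. Slc22a21, a carnitine carrier known from mouse, was at 0.366 in O/Tet3 and 0.00633 in mOSN. The 3 genes are neighbours on chromosome 11 and paralogs, so their reads may not be fully separate. Their folds of 3.27, 5.68 and 57.8 rest on few reads and none was called. Counts in this and the other related lists are to be read against the 16.5% of all compared rows called higher and 12.0% called lower, or 11.3% and 15.1% after centring. Of the 7 carnitine shuttle genes, 5 were compared, and 2 were higher and 0 lower with and without centring. The 2 are 40% of 5 genes. Crat, Cpt1a and Cpt1b were larger in mOSN, Cpt1a and Cpt1b under the floor, while Cpt1c and Cpt2 were larger in O/Tet3. Slc25a20, the mitochondrial carnitine carrier, was at 6.18 in O/Tet3 and 1.79 in mOSN, and Crot, which makes medium-chain acylcarnitines in peroxisomes, was at 8.43 in O/Tet3 and 2.41 in mOSN.

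The classical organic cation and anion carriers of liver and kidney were listed at or near 0. Slc22a2, an organic cation transporter of kidney, and Slc22a6 and Slc22a7, organic anion transporters, were listed at 0 in both libraries. Slc22a8, another organic anion transporter, was at 0.0486 in O/Tet3 and 0.0517 in mOSN. Slc22a12, the urate carrier of kidney, was at 0.298 in O/Tet3 and listed at 0 in mOSN. In all, 12 of the 24 Slc22 genes were listed at 0 in both libraries, against 1 of 15 Slco genes, 8 of 50 ABC genes and 34.0% of all rows. A listed 0 may also stand for an estimate that failed.

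Of the Abca genes, which move lipids, 1 was higher and 3 were lower of 5 compared. These are 20% and 60%, beside 16.5% and 12.0% of all compared rows, and rest on 5 genes. Abca was also the ABC subfamily with the most rows, 16, and the most compared genes. Abca1, which exports cholesterol and phospholipid to apolipoprotein A-I, was at 8.10 in O/Tet3 and 0.238 in mOSN, 34.0-fold higher (log2 ratio 2.88). It had the 150th highest log2 ratio of all compared rows. The coding genes beside it differed less: Nipsnap3b was at 7.22 in O/Tet3 and 3.25 in mOSN, and Slc44a1, a choline carrier, at 2.53 in O/Tet3 and 3.19 in mOSN. Abca2, an endosomal and lysosomal protein abundant in brain, was at 0.962 in O/Tet3 and 6.04 in mOSN, 6.28-fold lower (log2 ratio −1.84). Abca3, which loads phospholipid into the lamellar bodies of lung cells, was at 7.97 in O/Tet3 and 22.4 in mOSN, 2.81-fold lower (log2 ratio −1.38). Its neighbour Abca17, which overlaps it in RefSeq, was at 0.0313 in O/Tet3 and 0.174 in mOSN. Abca5, a lysosomal protein, was at 10.3 in O/Tet3 and 24.7 in mOSN, 2.41-fold lower (log2 ratio −1.19). Abca7, a phospholipid carrier also linked to phagocytosis, was at 1.70 in O/Tet3 and 2.65 in mOSN. The genes of the Abca5 run on chromosome 11 were otherwise low: Abca8a was listed at 0 in O/Tet3 and at 0.622 in mOSN, while Abca8b was at 0.508 in O/Tet3 and 0.206 in mOSN.

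The start regions of Abca1 and Abca5 are both rich in CG, unlike that of Slco1a6, and are shown because these genes lie on opposite sides of the comparison. On the minus strand of GRCm38.p6, the Abca1 window, chr4:53159846-53160145, holds 26 CG, and the Abca5 window, chr11:110337667-110337966, holds 40.
Abca1: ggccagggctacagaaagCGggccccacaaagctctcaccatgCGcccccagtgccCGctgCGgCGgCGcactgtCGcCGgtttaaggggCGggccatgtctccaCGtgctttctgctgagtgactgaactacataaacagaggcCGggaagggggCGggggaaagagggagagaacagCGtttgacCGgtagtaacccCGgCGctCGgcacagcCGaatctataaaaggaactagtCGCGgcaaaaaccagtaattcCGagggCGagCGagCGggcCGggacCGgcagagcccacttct
Abca5: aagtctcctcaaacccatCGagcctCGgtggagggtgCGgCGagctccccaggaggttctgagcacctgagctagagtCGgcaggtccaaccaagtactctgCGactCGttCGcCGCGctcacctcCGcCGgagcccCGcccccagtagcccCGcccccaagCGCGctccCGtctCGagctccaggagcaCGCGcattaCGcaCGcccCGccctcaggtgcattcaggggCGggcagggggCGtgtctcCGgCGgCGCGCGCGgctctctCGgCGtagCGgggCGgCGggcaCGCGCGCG
GGGCGG was found at 2 places in the Abca1 window and 5 in the Abca5 window, and TATAAA once in that of Abca1 and in none of Abca5. Windows were at hand for 72 of the 89 members, whose median was 8.5 CG. Only 20 of the 28 compared members had one, 71.4%, so a summary of CG over them would be void and is not given.

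Abcg1, which passes cholesterol to high-density lipoprotein and is, like Abca1, a known target of liver X receptors, was at 16.4 in O/Tet3 and 11.8 in mOSN (log2 ratio 0.45), within the limits for a call. Of those receptors, Nr1h2 was at 11.9 in O/Tet3 and 7.08 in mOSN and Nr1h3 at 0.0958 in O/Tet3 and 0.289 in mOSN. Abcg2, a drug efflux pump of barrier tissues, was at 0.377 in O/Tet3 and listed at 0 in mOSN. Abcg4, a brain sterol transporter, was listed at 0 in O/Tet3 and at 0.281 in mOSN. Abcg5 was listed at 0 in both libraries, and its partner in sterol export, Abcg8, was at 0.0674 in O/Tet3 and listed at 0 in mOSN. Of 17 cholesterol handling genes, 12 were compared, and 4 were higher and 0 lower. The calls are 33.3% and 0%, beside 16.5% and 12.0% of all compared rows, and 8 of the 12 reached 1 in both libraries. The median log2 ratio was 0.54, against 0.21 over all compared rows. After centring 2 were higher and 1, Scap, was lower, and Insig1 and Cyp46a1 were no longer called. The 4 higher before centring were Npc2, a lysosomal cholesterol carrier, at 4.38 in O/Tet3 and 1.01 in mOSN, Mylip, which degrades the LDL receptor, at 1.72 in O/Tet3 and 0.166 in mOSN, Insig1, a sterol sensor, at 3.01 in O/Tet3 and 0.882 in mOSN, and Cyp46a1, the brain cholesterol hydroxylase, at 1.35 in O/Tet3 and 0.117 in mOSN. Mylip, Insig1 and Cyp46a1 reached the floor in O/Tet3 only, so no lower call was open to them. Of 19 lipid and xenobiotic sensors, 10 were compared, 0 were higher and 1 lower, the aryl hydrocarbon receptor gene Ahr, at 1.60 in O/Tet3 and 4.57 in mOSN. After centring Nfe2l2, a regulator of the oxidative stress response at 32.4 in O/Tet3 and 57.1 in mOSN, was also lower, which made 2.

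Of the 10 genes of Abcc, a subfamily with efflux pumps, 4 were compared, and 0 were higher and 1 was lower. The lower gene is 25% of them, beside 12.0% of all compared rows, and the share rests on 4 genes. Abcc1, which exports glutathione conjugates and leukotriene C4, was at 4.43 in O/Tet3 and 25.9 in mOSN, 5.86-fold lower (log2 ratio −2.31), the lowest ratio of any member. Abcc4 and Abcc5, which can export cyclic nucleotides, were close between libraries. Abcc4 was at 11.0 in O/Tet3 and 8.84 in mOSN, and Abcc5 at 13.7 in O/Tet3 and 11.3 in mOSN, log2 ratios of 0.28 and 0.25 that fell to 0.08 and 0.05 after centring. Abcc10, a broad drug pump, was at 0.499 in O/Tet3 and 1.14 in mOSN. The sulfonylurea receptors were near or at 0: Abcc8 was listed at 0 in both libraries and Abcc9 was at 0.0328 in O/Tet3 and 0.0523 in mOSN. Their channel partner Kcnj8 was listed at 0 in both, and Kcnj11 was at 0.0135 in O/Tet3 and listed at 0 in mOSN.

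Xenobiotic enzymes, some of which make the conjugates that such pumps carry, were found on both sides of the comparison. Of 31 measured xenobiotic enzymes, 15 were compared, 4 were higher and 4 lower, and the median log2 ratio was −0.29. These are 26.7% each, beside 16.5% and 12.0% of all rows, and after centring 4 were higher and 6 lower, with Por and Sult1c1 added. Fmo1, a flavin monooxygenase, was at 133 in O/Tet3 and 3.30 in mOSN, and the glutathione transferase Gsta4 was at 9.58 in O/Tet3 and 0.598 in mOSN. The glutathione transferase Gstp1 was at 5.40 in O/Tet3 and 0.278 in mOSN, and Ugt2a1, a glucuronosyltransferase of the olfactory epithelium, at 2.53 in O/Tet3 and 15.6 in mOSN. Of 24 measured other organic ion, nucleoside, bile acid and drug carriers, 5 were compared, 2 were higher and 0 lower. These were the peptide carriers Slc15a2, at 5.15 in O/Tet3 and 0.269 in mOSN, and Slc15a3, at 1.56 in O/Tet3 and 0.122 in mOSN. Slc15a3 was no longer called after centring, which left 1 higher. Among ABC proteins with other symbols, Tap1, which feeds peptides to MHC class I, was at 1.54 in O/Tet3 and 0.163 in mOSN, a log2 ratio of 1.12 that was called higher but fell to 0.92 after centring, while its partner Tap2 was at 1.29 in O/Tet3 and 1.89 in mOSN. Cftr, a chloride channel, was called lower, listed at 0 in O/Tet3 and at 1.02 in mOSN.

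**Figure D4:**
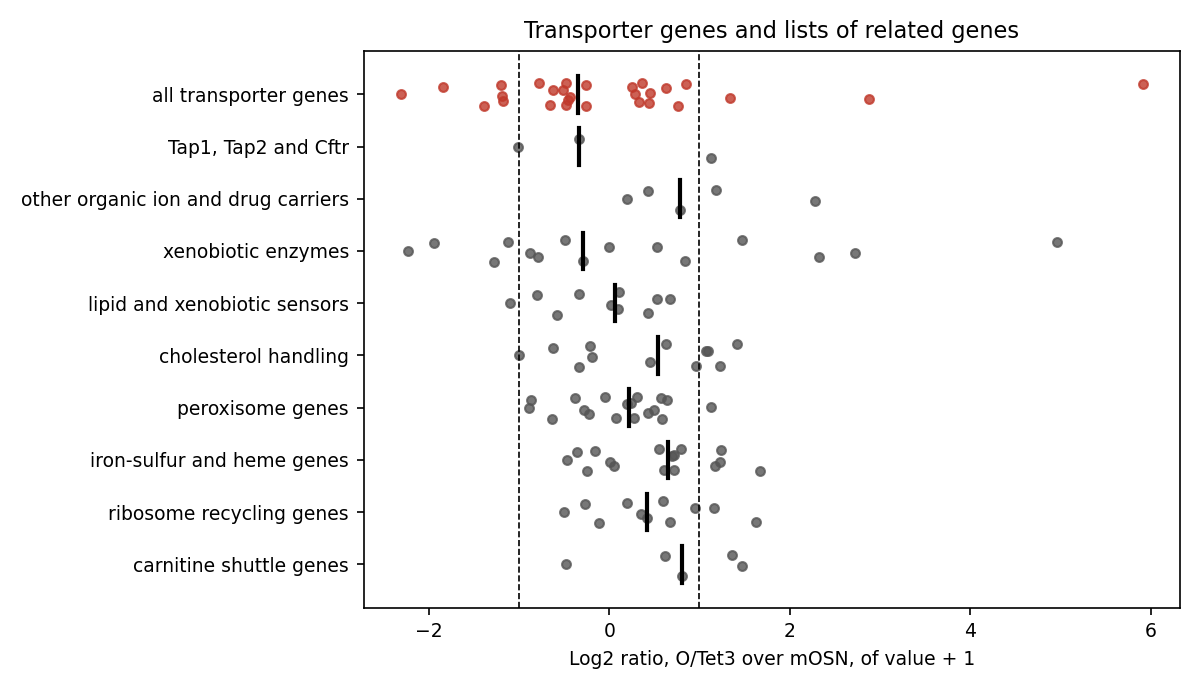
Log2 ratios, O/Tet3 over mOSN, of value + 1 for the compared transporter genes (red, top) and the compared genes of 9 related lists (grey), each point a gene. Black bars mark medians and dashed lines the limits for a call. Slco1a6 at 5.91 and the enzyme gene Fmo1 at 4.97 lie farthest to the right, and the transporter median is −0.35.

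Of the Abcb genes, the mitochondrial members were all compared and none was called, while the plasma membrane pumps were at or near 0. Abcb6, linked to porphyrin transport, was at 2.51 in O/Tet3 and 1.59 in mOSN, and Abcb10, which serves heme synthesis, at 1.82 in O/Tet3 and 1.19 in mOSN. Abcb8 went the other way, at 0.798 in O/Tet3 and 1.50 in mOSN. Of 17 mitochondrial iron-sulfur and heme genes, 16 were compared, 4 were higher and 0 lower, with a median of 0.66, and after centring 3 were higher. They included Uros, an enzyme of heme synthesis, at 18.3 in O/Tet3 and 5.04 in mOSN, and Urod, the next enzyme of that path, at 16.0 in O/Tet3 and 6.18 in mOSN. Of the P-glycoprotein genes, Abcb1a was at 0.139 in O/Tet3 and listed at 0 in mOSN, and Abcb1b was listed at 0 in both libraries. Abcb4, the phosphatidylcholine pump of bile, was at 0.0905 in O/Tet3 and listed at 0 in mOSN, and Abcb11, the bile salt pump, was listed at 0 in both.

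The Abcd genes, most of which bring fatty acyl-CoA into peroxisomes, did not move together. Abcd2 was at 11.0 in O/Tet3 and 26.5 in mOSN, 2.41-fold lower (log2 ratio −1.20). Abcd3 was at 1.50 in O/Tet3 and 0.616 in mOSN (log2 ratio 0.63), within the limits for a call. Abcd4, which acts in lysosomal vitamin B12 export, was at 0.416 in O/Tet3 and 0.406 in mOSN. Of 19 measured peroxisome genes, 18 were compared, 1 was higher and 0 lower, and their median log2 ratio of 0.22 lay at the 0.21 of all rows. The higher one was Pex19, the carrier that delivers peroxisomal membrane proteins, at 13.2 in O/Tet3 and 5.50 in mOSN. After centring Pex19 was no longer called, and 0 were higher and 2 lower.

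The ABC proteins that act on ribosomes were all measured. Abce1, which splits ribosomes after termination, was at 11.3 in O/Tet3 and 5.79 in mOSN (log2 ratio 0.85). Abcf3, related to the yeast translation regulator Gcn20, was at 14.0 in O/Tet3 and 4.93 in mOSN, 2.84-fold higher (log2 ratio 1.34, or 1.13 after centring). A transcribed pseudogene that overlaps Abcf3 in RefSeq, Gm15760, was at 2.10 in O/Tet3 and listed at 0 in mOSN, and since the strand setting is not given, reads of the overlap cannot be told apart. Abcf1, which promotes translation initiation, was at 47.9 in O/Tet3 and 57.6 in mOSN, and Abcf2 at 7.96 in O/Tet3 and 11.3 in mOSN. Of 11 ribosome recycling and translation control genes, all were compared, 2 were higher and 0 lower, with a median of 0.42. The 2 are 18.2%, near the 16.5% of all rows. These were the release factor gene Gspt2, at 2.63 in O/Tet3 and 0.173 in mOSN, and Eif2s2, a subunit of initiation factor eIF2, at 33.9 in O/Tet3 and 14.6 in mOSN, which was no longer called after centring.

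Several members are known from vessels, glia, liver or kidney, so markers of other cells were read beside them. The 9 vessel markers summed to 2.06 in O/Tet3 and 1.48 in mOSN, with Cdh5, Cldn5 and Emcn listed at 0 in both libraries and Kdr in O/Tet3. Only Vwf was compared, at 1.30 in O/Tet3 and 1.28 in mOSN, and it was not called. The 9 macrophage markers summed to 1.14 in O/Tet3 and 1.33 in mOSN, with C1qb and C1qc listed at 0 in both, C1qa in O/Tet3 and Emr1 in mOSN. The 5 ensheathing glia markers summed to 1.57 in O/Tet3 and 7.39 in mOSN, with S100b and Sox10 listed at 0 in O/Tet3, and 1 was lower, Fabp7, at 0.0607 in O/Tet3 and 4.78 in mOSN. The 6 sustentacular markers summed to 17.3 in O/Tet3 and 34.3 in mOSN, with Cyp1a2 listed at 0 in O/Tet3. Of these, 1 was lower, Ugt2a1, at 2.53 in O/Tet3 and 15.6 in mOSN, which makes most of the gap between the sums. The other 3 compared ones were within the limits for a call. The 4 microvillous cell markers summed to 0.538 in O/Tet3 and 3.78 in mOSN, with Ascl3, Cftr and Foxi1 listed at 0 in O/Tet3. Both compared ones, Ascl3 and Cftr, were lower, but they reached the floor in mOSN only, so no higher call was open to them. Trpm5, under the floor, was larger in O/Tet3, at 0.538 in O/Tet3 and 0.378 in mOSN. The 5 Bowman gland markers summed to 0.445 in O/Tet3 and 1.38 in mOSN, with Sox9 listed at 0 in mOSN.

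All 4 basal cell markers were listed at 0 in O/Tet3 and summed to 0.207 in mOSN, where Icam1 was at 0. The 5 red blood cell markers summed to 41.6 in O/Tet3 and 63.4 in mOSN, and 0 were called, or 1 lower, Hba-a2, after centring. The 6 immature neuron markers summed to 142 in O/Tet3 and 131 in mOSN, 3 of them higher, or 2 after centring, and 1 lower. The lower one was Stmn4, at 23.3 in O/Tet3 and 86.4 in mOSN. The other 5 were each larger in O/Tet3, a division of the list made after the values were seen. Of the liver markers, Alb and Apoa2 were listed at 0 in both libraries and the 4 summed to 0.135 in O/Tet3 and 0.0653 in mOSN. Of the 4 kidney tubule markers, Kap, Slc34a1 and Umod were listed at 0 in both libraries, with sums of 0.0206 in O/Tet3 and 0.0506 in mOSN. The part of glial, sustentacular, microvillous and red blood cell RNA in the lower transporter values was not tested.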

How the data were processed

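The deposited log2 table holds 1 value for each gene row and RNA library and their difference. Per the submitters' processing notes, Bowtie, Bowtie2, Cuffdiff and build mm9 were used, without versions or roles. The gene annotation, strand setting and normalization are not given in the sources used here. Values were read as log2(value + 1), since their lowest is exactly 0, and the deposited log2 ratio was reproduced by the difference of the columns. The third sample, DNA immunoprecipitated for 5-hydroxymethylcytosine, was not analysed here.

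Members were rows matching the symbols of the 3 families, and all ratios, ranks and shares were computed over the whole table with Python 3.11.15 and pandas 2.3.3. The calling step was run on simulated data without noise or a depth difference, which checks its arithmetic only. The pseudocount was 1, the floor 1 and the call a log2 ratio of 1. The rules let members with a value of at least 1 be named, as well as up to 4 genes of each related list. Others under the floor were named for their role after their values were seen. Further genes of some lists were also named after their values were seen, where centring changed a call or a list held genes of the other direction. Members, lists and rules were chosen with earlier results of these data known. Tandem neighbours and promoter windows, matched by symbol, come from RefSeq on GRCm38.p6. All 89 members matched a RefSeq gene. Some genes enter the counts but are not reported here by name. Alternatives were a pseudocount of 0.1, a floor of 5 or none, centring, leaving out rows listed at 0 in 1 library, and a 3-fold call.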

Additional observations from a re-analysis of the deposited data

How the results depend on the processing

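Counts of called members were 4 higher and 8 lower with a pseudocount of 0.1, 3 higher and 5 lower with a floor of 5, and 2 higher and 2 lower at 3-fold. The share of all rows called was obtained only for the main setting and after centring. Counts of members under the other settings therefore cannot be read against all rows. With no floor, after centring and without rows listed at 0 in 1 library they stayed at 3 higher and 6 lower, the last because no compared member is listed at 0. The pseudocount of 0.1 added Abcd3 to the higher and Slc22a15 and Abcc10 to the lower genes. The median of all members was −0.46 with a pseudocount of 0.1, −0.55 centred and 0.0028 with no floor, where it changed sign. The Slco median was 5.91 with a floor of 5, which leaves Slco1a6 alone, −0.17 centred and −0.014 with no floor, the last 2 of opposite sign. The Slc22 median was −0.77 with a pseudocount of 0.1, −0.87 centred and, with opposite sign, 0.19 with no floor. The ABC median was −0.0036 with a floor of 5, −0.47 centred and −0.00057 with no floor. Dropping the floor adds genes near 0 in both libraries by construction, and the cause of the other differences was not tested. Each of the 16 single genes that were called or reached a value of 10 kept its direction and its side of the limit with a pseudocount of 0.1 and after centring. Centring of the related and marker lists was added after seeing the data, and its counts stand beside those lists. Leaving out a library was not possible with 1 per group. No paired analysis was possible because there is a single library in each group. Unknown depth, and a value of 1 read that may be larger in O/Tet3, limit what can be said of genes under the floor.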
